A study of Drosophila melanogaster with 2 samples.

Results

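The genes described are those of the Mediator complex, the TATA-binding protein (TBP)-associated factors (TAFs) and the TFII general transcription factors of Drosophila melanogaster. They are viewed by where peaks of the transcription factor tailup (tup) lay near them in embryos. They were chosen by symbol: every protein-coding gene of the Ensembl annotation whose symbol begins with MED, Taf or TfII followed by its subunit number or letter. The rule gave 49 of 13968 protein-coding genes, made up of 25 Mediator genes, 15 TAF genes and 9 TFII genes. Genes of these complexes with other symbols were outside the rule. Those that were listed are given separately at the end, and the lists need not be complete.

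Chromatin immunoprecipitation with sequencing (ChIP-seq) was done with an anti-GFP antibody on whole embryos aged 0 to 24 h, male and female pooled, of a transgenic line that stably carries tup fused to GFP at its C terminus. The labels give 1 group of 2 biological replicates, both of that line, and no untagged or mutant group. Peaks are read here as positions of the tagged protein, averaged over all cells and all stages of embryogenesis. With no untagged group, and the control not analysed here, signal from other sources was not assessed. Binding in a few cells cannot be told apart from weak binding in many.

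The tables are peak lists on dm6, with a candidate list for each replicate, 1 for the pooled replicates and an optimal list of 2241 peaks that the authors derived from them by reproducibility. The optimal peaks were the 2241 strongest of 30000 pooled candidates, so an optimal peak need not be found in each replicate. Peak heights are the peak caller's signal value as deposited. The lowest optimal peak had a signal of 68.7, the median was 102.3 and the highest 1283. Signal was compared only within a list, since its scale differs between lists. Read totals are not in these lists, so the depth behind a peak is unknown.

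RNA polymerase II starts transcription within an assembly of general factors. TFIID, made of TBP and TAFs, recognises core promoters, TFIIA and TFIIB stabilise TBP on the DNA and position the polymerase, and TFIIE, TFIIF and TFIIH complete the assembly and open the promoter. Mediator bridges this assembly and DNA-bound activators, with a head and a middle module that touch the polymerase, a tail that many activators contact, and MED14 as the backbone joining them. Most of these genes are used by every cell. Tup is the fly Islet-type LIM-homeodomain factor, known for roles in the heart, the amnioserosa and neuron identity.

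The DNA under the summits is shown for 7 of the genes with an optimal peak at a start. The 7 stretches below were chosen as the strongest Mediator peak, the only TAF peak, the strongest TFII peak, and the other peaks whose stretch holds a DRE core or a homeodomain core. Each is read 5′ to 3′ on the strand of the named gene, from the RefSeq copy of dm6. They reach at most 60 bases to each side of the summit and hold at most 30 bases of annotated UTR. Capitals mark matches, on either strand, to the DRE core CGATA (the inner part of the DNA replication-related element TATCGATA, a promoter element of housekeeping genes) or to the homeodomain core TAATTA. The stretches are MED30 at chr3L:654186-654306 (minus strand), Taf4 at chr3L:16113602-16113722 (plus), TfIIA-S at chr3R:23891041-23891161 (minus), MED27 at chr3R:5654927-5655047 (plus), MED17 at chr3R:18188852-18188972 (plus), MED7 at chr3R:10761003-10761098 (minus) and TfIIA-L at chr3R:27253169-27253289 (plus).
MED30: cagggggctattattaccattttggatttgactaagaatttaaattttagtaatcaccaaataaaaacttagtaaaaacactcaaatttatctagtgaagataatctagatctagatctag
Taf4: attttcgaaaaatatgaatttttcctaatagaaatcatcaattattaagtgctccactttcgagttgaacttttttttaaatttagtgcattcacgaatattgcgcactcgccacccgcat
TfIIA-S: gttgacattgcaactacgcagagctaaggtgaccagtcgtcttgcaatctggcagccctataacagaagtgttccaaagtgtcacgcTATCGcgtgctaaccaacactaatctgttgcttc
MED27: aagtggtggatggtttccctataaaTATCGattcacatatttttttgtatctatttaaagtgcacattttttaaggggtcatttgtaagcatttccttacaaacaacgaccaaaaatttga
MED17: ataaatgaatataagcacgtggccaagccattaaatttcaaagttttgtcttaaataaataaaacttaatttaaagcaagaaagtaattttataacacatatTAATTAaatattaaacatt
MED7: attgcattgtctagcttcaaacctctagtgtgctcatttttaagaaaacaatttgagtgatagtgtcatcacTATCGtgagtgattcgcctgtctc
TfIIA-L: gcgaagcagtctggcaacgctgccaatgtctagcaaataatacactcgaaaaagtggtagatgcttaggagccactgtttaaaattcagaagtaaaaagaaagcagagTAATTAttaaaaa
The DRE core stands in the MED27, TfIIA-S and MED7 stretches and the homeodomain core in those of MED17 and TfIIA-L. The MED30 and Taf4 stretches hold neither.

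Optimal summits lay within 1 kb of a transcript start of 12 of the 49 genes (24.5%), where 13.3% of all protein-coding genes had one. They were MED4, MED6, MED7, MED15, MED16, MED17, MED27, MED30, Taf4, TfIIA-L, TfIIA-S and TfIIB. Mediator genes made up 8 of them (8 of 25, 32%), TFII genes 3 (3 of 9, 33.3%) and TAF genes 1 (1 of 15, 6.67%). Among these 12, the strongest peak had a median signal of 135.4, from 83.1 to 256.3. Over the 1857 protein-coding genes with such a peak the median was 112.6, with an interquartile range from 85.2 to 161.7.

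Each of the 12 genes had its own peak, since none of the 25 optimal peaks in or near the 49 genes was shared by members. Of the 12 summits, 9 lay within 200 bp of a start of the named gene and 4 within 50 bp, with a median distance of 154.5 bp. The annotation places 8 of the 12 summits in no gene. Those of Taf4 and TfIIA-L are in introns of these genes, that of MED6 in its 5′ UTR and that of MED4 in an exon of a neighbouring antisense RNA gene. The distances and placement of all optimal peaks near starts are not given here, so these counts cannot be called particular to the 12 genes.

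**Figure D1:**
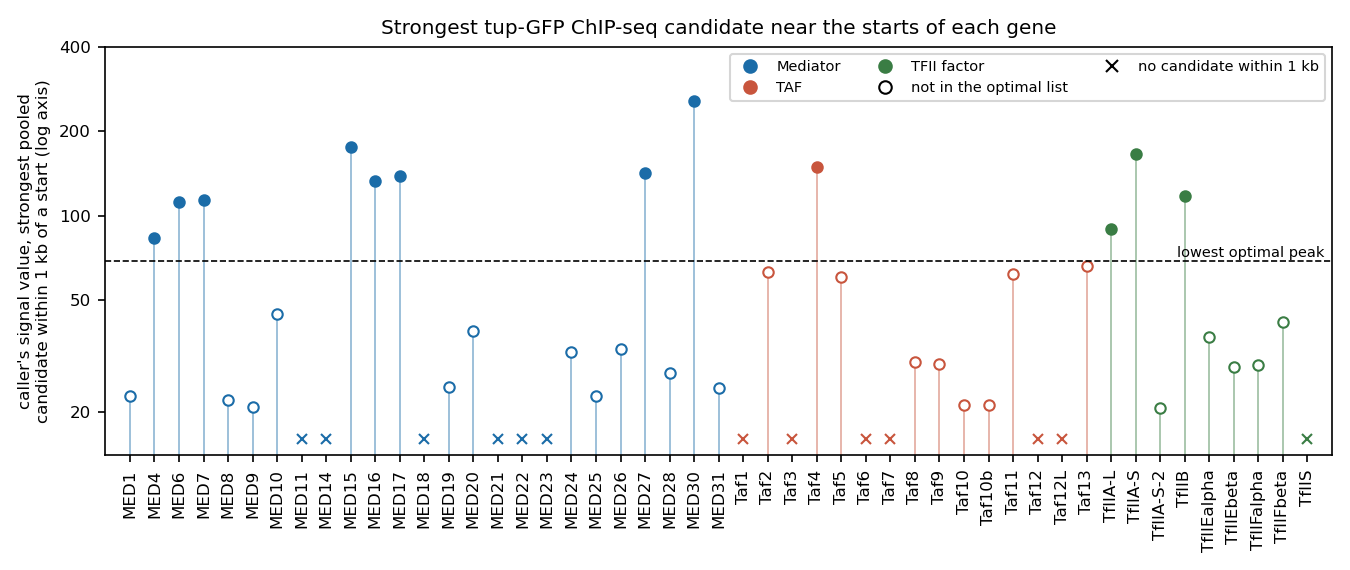
Signal value of the strongest pooled candidate within 1 kb of a start of each of the 49 genes (log axis), with filled points for genes with an optimal peak there, open points for weaker candidates and crosses for genes with none. The 12 filled points range from 83.1 to 256.3, and 4 open TAF points lie just under the lowest optimal peak at 68.7.

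In the Mediator head, 3 of 10 genes had an optimal summit within 1 kb. The strongest peak of all 12 genes belonged to MED30, a metazoan head subunit, at chr3L:654243-654339 with a pooled signal of 256.3, rank 169 of 2241. Its signal was 148.6 in replicate 1 and 117.4 in replicate 2. The summit lay 157 bp upstream of MED30 and 117 bp from the start of Rev1, a translesion DNA polymerase gene on the other strand. It thus stands between both starts and is nearer to Rev1.

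MED17, a core head subunit, had a peak at chr3R:18188720-18189103 with a pooled signal of 138.1, 160 bp upstream of its start. Replicate 1 gave 100.6. Replicate 2 had no candidate within 100 bp of that summit, and its strongest candidate near the gene, 55 bp from the start, had a signal of 33.0. MED6, another head subunit with 5 annotated starts, had a peak at chr3R:9767606-9767989 (signal 112.3), 17 bp downstream of a start. Both replicates had it, with signals of 66.8 and 39.5.

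Among middle-module genes, 2 of 8 had an optimal summit within 1 kb. The summit of MED7 lay 6 bp upstream of its start, the closest of the 12, in a peak at chr3R:10760846-10761229 with a signal of 113.5 (67.8 in replicate 1, 46.3 in replicate 2). The peak of MED4 at chr3L:7250515-7250898 was the weakest of the 12 at 83.1. Replicate 1 gave 45.6, just under the weakest of its own 2241 strongest peaks (46.8), and replicate 2 gave 46.6. Its summit was 180 bp upstream of MED4 and 67 bp from the start of asRNA:CR43470.

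Among tail genes that fit the symbol rule, 3 of 6 had an optimal summit within 1 kb. MED15, a tail subunit that binds activators, had a peak at chr2L:472321-472704 with a signal of 175.2 (92.7 in replicate 1, 80.6 in replicate 2). The summit was 500 bp upstream of MED15, farther than any other of the 12, and 313 bp from the start of CG4297. MED27 had a peak at chr3R:5654795-5655178 with a signal of 141.9 (105.8 in replicate 1, 51.3 in replicate 2). It lay between the starts of MED27 (152 bp) and elm (126 bp). The MED16 summit, 24 bp upstream of its own start on arm 2R, had a signal of 132.7, with 78.8 in replicate 1 and 50.2 in replicate 2.

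MED14, the backbone, had neither an optimal nor a pooled candidate within 1 kb. Weak candidates of single replicates were there (21.1 in replicate 1, 17.7 in replicate 2). Pooled candidates that did not reach the optimal list were near MED1, MED8, MED9, MED10, MED19, MED20, MED24, MED25, MED26, MED28 and MED31, with signals from 20.8 (MED9) to 44.5 (MED10). Besides MED14, the Mediator genes with no pooled candidate within 1 kb were MED11, MED18, MED21, MED22 and MED23.

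With the optimal list, the share of TAF genes with a summit within 1 kb was below that of the other families and of all protein-coding genes. No test of the difference was made, and the order did not hold under some other settings, given below. The single TAF gene with an optimal summit within 1 kb was Taf4, which encodes a histone-fold subunit of the TFIID core. Its peak at chr3L:16113470-16113853 had a pooled signal of 149.5, with 82.7 in replicate 1 and 67.5 in replicate 2. The summit is inside the gene, in an intron, 128 bp upstream of the nearest of its 3 annotated starts.

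Just under the optimal threshold stood 4 genes, and all 4 were TAF genes. Taf13 had a signal of 65.9 (rank 2393), with 57.6 in replicate 1 and 13.7 in replicate 2. Taf2, whose product contacts initiator DNA, had 62.7 (rank 2607), with 39.4 and 22.8. Taf11, the histone-fold partner of Taf13, had 62.06 (rank 2647) with the summit 16 bp from its start, and 50.2 and 10.9 as the strongest candidates of each replicate within 1 kb. For these, and for Taf5 (60.3, rank 2797, with 48.9 and 9.63), the replicate 2 value was below 27.07, the weakest of that replicate's 2241 strongest peaks. Ranks 2242 to 4482 held 8.16% of the 49 genes and 7.96% of all protein-coding genes.

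The TAF count depends on the list and the window, and moved from below to above the share of all protein-coding genes. It was 4 of 15 (26.7%, all protein-coding genes 13.3%) with the 2241 strongest peaks of replicate 1 alone (Taf4, Taf5, Taf11 and Taf13). With those of replicate 2 it was 1 (6.67%, all protein-coding genes 12.6%). With a distance of 2000 bp it was 4 (Taf4, Taf10, Taf10b and Taf12; 26.7%, all protein-coding genes 16.5%). Taf10 and Taf10b were there counted through the same 1 peak, whose summit was nearest to aph-1. With 2 times as many pooled peaks the TAF count was 5 (33.3%, all protein-coding genes 21.3%), a share level with those of Mediator (32%) and TFII genes (33.3%) at that setting. Pooled candidates of any strength were within 1 kb of 9 of 15 TAF genes (60%), close to the 57.3% of all protein-coding genes. Such candidates were near 19 of 25 Mediator genes (76%) and 8 of 9 TFII genes (88.9%). Weak candidates were near Taf8 (29.96), Taf9 (29.5), Taf10 and Taf10b. The starts of these last, paralogous genes face away from each other across 45 bp and share a single candidate of signal 21.1. Taf1, the largest TFIID subunit, had no pooled candidate within 1 kb, nor had Taf3, Taf6, Taf7, Taf12 and Taf12L.

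Of the TFII genes, TfIIA-L, TfIIA-S and TfIIB had optimal summits within 1 kb. TfIIA-S, the small TFIIA subunit, had a peak at chr3R:23890909-23891292, 41 bp upstream of its start, with a pooled signal of 166.4 (87.6 in replicate 1, 77.1 in replicate 2). TfIIA-L, whose product is cut into the larger TFIIA subunits, had a peak at chr3R:27253037-27253420 with a signal of 89.6. Its summit lay 201 bp upstream of the second annotated start and 47 bp from the start of pll, the kinase gene of the Toll pathway, which is nested in TfIIA-L on the other strand. Replicate 2 gave 37.7 there, and replicate 1 had no candidate within 100 bp of that summit. A further pooled candidate, 2 bp from the second start, had a signal of 68.5 and rank 2253, and there replicate 1 gave 68.98 and replicate 2 none.

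TfIIB, whose product recruits the polymerase, had a peak at chr2L:10430808-10431191 with a signal of 117.2, 338 bp upstream of its start and 82 bp from that of Bug22, a ciliary gene. Its replicate signals were 90.9 and 23.6, and the latter ranked 2851 in replicate 2. The other TFII genes had weaker candidates within 1 kb, from 20.6 at TfIIA-S-2 through 28.9 at TfIIEbeta, 29.4 at TfIIFalpha and 36.9 at TfIIEalpha to 41.8 at TfIIFbeta. TfIIS, an elongation factor gene, had none.

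Across all 49 genes, the ratio of their share to that of all protein-coding genes was smaller for pooled candidates than for optimal peaks. Pooled candidates lay within 1 kb of 36 genes (73.5%, all protein-coding genes 57.3%). From 5 kb upstream of the gene to its end, optimal summits were found for 19 genes (38.8%, all protein-coding genes 22.8%) and pooled candidates for 45 (91.8%, all protein-coding genes 83.8%). MED11, MED21, Taf6 and Taf12L had no pooled candidate in that region. Taf6 did have weak candidates of the replicates, 263 bp from its start in replicate 1 (24.1) and 260 bp in replicate 2 (16.5). In replicate 2 alone, MED21 (15.7) and Taf12L (8.78) had one within 1 kb, and MED11 had none in either. The 49 genes were shorter than most, with a median length of 1330 bp against 2164.5 bp, so their regions were shorter as well (6330 against 7164.5 bp).

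The wider region added 7 genes without an optimal summit within 1 kb, and each of these peaks was nearer to the start of another gene. They were MED10 (93.2, nearest l(3)72Dn), MED14 (188.7, nearest Kah), MED18 (117.6, nearest deltaCOP, a coatomer gene), MED24 (130.0, 18 bp from Atg18a, an autophagy gene), MED28, Taf10 (150.4, nearest aph-1, a gamma-secretase gene) and TfIIEalpha (82.6, nearest CG32085). In MED28, a head gene, the region held peaks of signal 316.8 and 154.8, which lay 196 bp from the start of the furin protease gene Fur1 and 36 bp from that of Vps33B. In all, 13 optimal peaks were in the regions but over 1 kb from any own start, and 11 of them were within 500 bp of another gene's start. The share of all optimal peaks within 500 bp of a start is not given here.

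**Figure D2:**
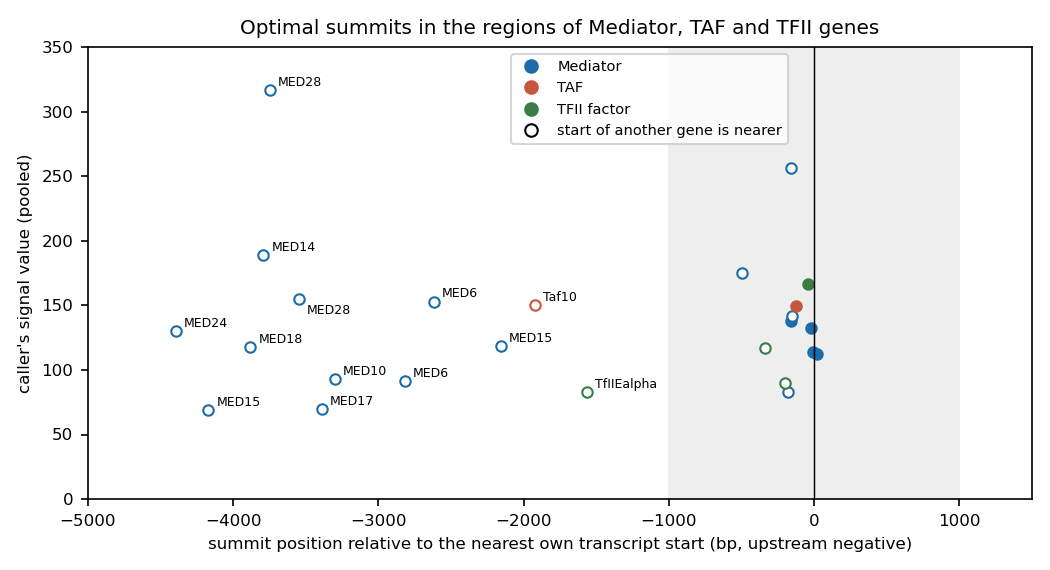
Signal value of each of the 25 optimal peaks against its signed distance from the nearest start of the Mediator, TAF or TFII gene (upstream negative), with open points where another gene's start is nearer and the 1 kb window shaded. All 13 distal summits are upstream and open, while 6 of the 12 summits in the window are filled.

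Other genes' starts were close to many of the near peaks too. Of the 12 summits, 8 stood between a start of the named gene and a start on the other strand that points away from it within 1 kb (a divergent pair). The partners were Rev1 for MED30, CG4297 for MED15, elm for MED27, CG12321 for MED17, CG11170 for MED16, Cap-H2 for MED7, Bug22 for TfIIB and pll for TfIIA-L. The share of all optimal summits that stand between divergent starts is not given here. Only 6 genes kept an optimal summit when it had to be nearer to an own start than to that of any other gene (12.2%, all protein-coding genes 9.03%). These were MED6, MED7, MED16, MED17, Taf4 and TfIIA-S.

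A divergent start within 1 kb was present at 37 of the 49 genes (75.5%) and at 39.6% of all protein-coding genes. Among genes with one, 11 of 37 (29.7%) had an optimal summit within 1 kb, against 1287 of 5527 (23.3%) of all protein-coding genes. Among genes without one, it was 1 of 12 (8.33%, TfIIA-S) against 570 of 8441 (6.75%). Within each arrangement the shares were thus closer together than the 24.5% and 13.3% over all arrangements. The part of promoter arrangement in the count was not tested.

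**Figure D3:**
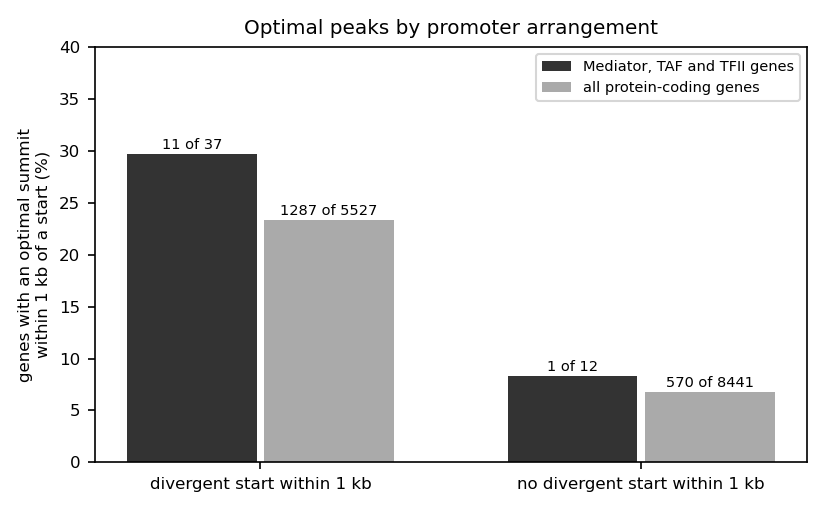
Percentage of genes with an optimal summit within 1 kb of a start, split by whether a divergent start of another gene lies within 1 kb, for the 49 genes (dark) and all protein-coding genes (grey), with counts over the bars. With a divergent start the bars are at 29.7% and 23.3%, and without one at 8.33% and 6.75%.

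The replicates held most of these peaks. Of the 12 near summits, 11 had a candidate within 100 bp in replicate 1 and 11 in replicate 2. Among the 2241 strongest peaks of a replicate, 10 were matched in each, and 8 in both. The matched shares of all optimal peaks are not given here, so these counts cannot be called particular to the 49 genes. Counted over each replicate's strongest peaks, 14 genes had a summit within 1 kb in replicate 1 (28.6%, all protein-coding genes 13.3%) and 11 in replicate 2 (22.4%, all protein-coding genes 12.6%). Both replicates had one at 10 genes (20.4%, all protein-coding genes 8.86%), which are the 12 without MED4 and TfIIB. The peaks not matched among the strongest of both replicates were those of MED17, TfIIB, TfIIA-L and MED4, described above.

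**Figure D4:**
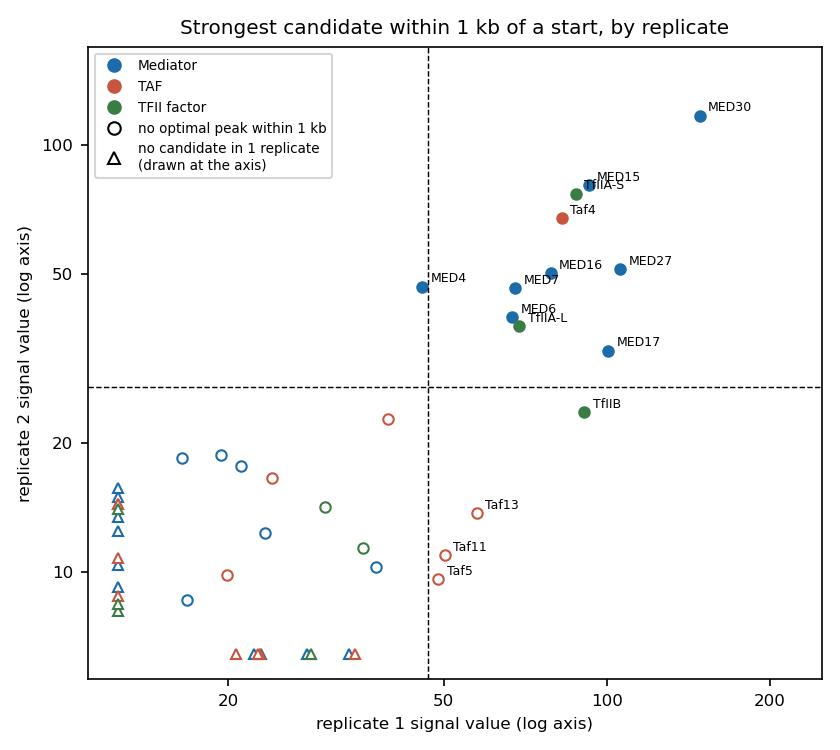
Signal of the strongest candidate within 1 kb of each gene's starts in replicate 1 against replicate 2 (log axes, scales not comparable), with dashed lines at the weakest of each replicate's 2241 strongest peaks (46.8 and 27.07). Filled points, genes with an optimal peak, lie above both lines except TfIIB, under that of replicate 2, and MED4, just under that of replicate 1. The open points of Taf5, Taf11 and Taf13 pass the line of replicate 1 only. The candidates of a gene need not share a summit.

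Motif matches were counted within 50 bp of the 12 summits (101 bp) and in the promoters of all 49 genes (250 bp upstream to 50 bp downstream of the 5′ end, 300 bp). Under the summits the DRE core CGATA was in 3 of 12 windows (25%) and in 17.4% of the 1360 windows at optimal peaks near any protein-coding gene. The full DRE, TATCGATA, was in 0 of 12 and 2.35%, and the homeodomain core TAATTA in 1 of 12 (8.33%, MED17) and 9.71%. CTAATG, another homeodomain-type sequence, was in 0 of 12 and 3.16%. The TATA box TATAAA was in 2 of 12 (16.7%) and 23.8%. Median GC was 37.6% in the 12 windows and 33.7% in the 1360.

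The promoters of the 49 genes differed from all protein-coding promoters in some elements known from housekeeping promoters. GGTCACAC, the core of the promoter element called Motif 1, was in 24.5% against 7.69%, and the full DRE in 16.3% against 9.36%. The E-box CAGCTG, also found in housekeeping promoters, was in 14.3% against 17.6%. The initiator letters TCAGT (26.5% against 51.5%) and GAGAG (16.3% against 29.7%) were less frequent. TAATTA was in the promoters of 7 of the 12 genes with an optimal summit within 1 kb of any start (58.3%). It was in those of 8 of the 37 genes without (21.6%). Over all protein-coding genes the shares were close, 23.2% with such a summit and 20.4% for all promoters. For MED6 and TfIIA-L that summit was near another of their starts and over 1 kb from the 5′ end that defines the promoter. TfIIA-L is among the 7. Only at MED17 did TAATTA also fall within 50 bp of the summit. Median promoter GC was 34.5% in the 12, 36.7% in the 37 and 38% over all protein-coding genes. Whether base content bears on the TAATTA shares was not tested. Motif 1 (16.7% against 27%) and the full DRE (16.7% against 16.2%) were at about the same share or lower in the 12 than in the 37. All motifs were searched on both strands, and a match to CGATA is contained in every match to TATCGATA.

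Chosen lists of transcription machinery genes outside the symbol rule were counted in the same way, and each list need not be complete. Of 66 such genes, 20 had an optimal summit within 1 kb (30.3%, against the 13.3% of all protein-coding genes). When the summit had to be nearest to an own start there were 10 (15.2%, all protein-coding genes 9.03%). With the strongest peaks of replicate 1 alone there were 19 (28.8%, all protein-coding genes 13.3%), where Ada3 and Nelf-A dropped out. With those of replicate 2 alone there were 19 as well (28.8%, all protein-coding genes 12.6%), where Hel89B, TH1 and mrn dropped out. In each case other genes came in.

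Among the listed genes of TFIID and Mediator under other names there were none. Tbp, which encodes the TATA-binding protein, had a weak candidate 16 bp from its start (29.4), and of 3 genes of that family 0 had an optimal summit. The testis-specific TAF paralogs (can and mia among them) had 0 of 4. Another of them, Taf12L, is counted among the TAF members. The Mediator kinase module, which includes Cdk8 and kto, had 0 of 4 as well, with an optimal peak in the wider region of skd (126.0). Lists this short cannot be set apart from the 13.3% of all protein-coding genes.

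RNA polymerase II subunits had 4 of 12, namely Polr2B (155.9), Polr2F (168.5), Polr2H (168.1) and Polr2J (111.7), while Polr2A, the largest subunit, and Polr2C had none. TFIIH genes had 3 of 10, Ssl1, Tfb4 (100.4) and mrn (100.6), but not Xpd or hay, which encode its helicases. The Ssl1 peak was the strongest of all these at 843.7 and was nearer to Chro (86 bp) than to Ssl1 (191 bp).

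In the SAGA coactivator, which shares TAFs with TFIID, 5 of 16 genes had one: the acetyltransferase gene Gcn5 (166.5), Ada2b (101.4), Ada3 (106.1), wda (140.7) and not (76.1). Spt3 and Nipped-A had none. Pausing and elongation genes had 4 of 12, with the NELF subunit genes Nelf-A (80.04), Nelf-E (216.9) and TH1 (167.3), and lilli (116.9), but not Cdk9 or Spt5. TBP regulators had 2 of 3, Hel89B (95.8) and NC2alpha (219.9) but not NC2beta. The list of Pol III initiation factors held only Bdp1 (277.7) and Brf (263.2), and each had one. The Bdp1 and Brf summits were nearer to the starts of CG6565 and sds22. Besides these and Ssl1, another gene's start was nearer to the summits of Hel89B, NC2alpha, Nelf-A, lilli, wda, Polr2H and Tfb4.

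**Figure D5:**
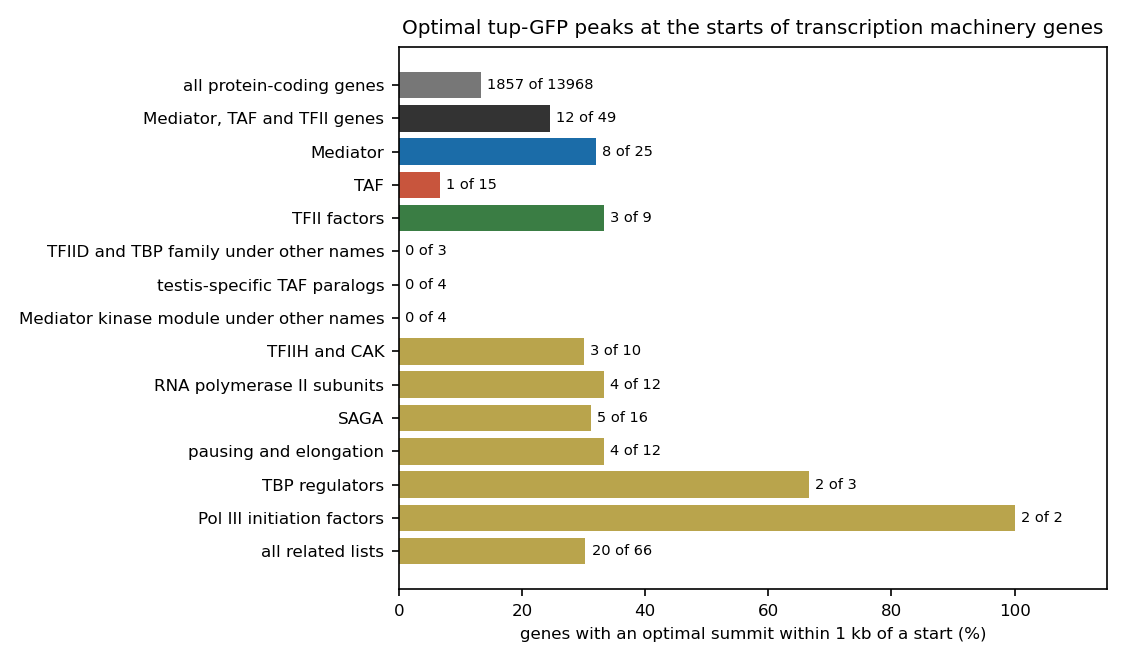
Percentage of genes with an optimal summit within 1 kb of a start, for all protein-coding genes (grey), the 49 genes and their families, and the lists outside the symbol rule, with counts beside the bars. Mediator (32%) and TFII factors (33.3%) are above the 13.3% of all protein-coding genes and TAF genes (6.67%) below it with the optimal list.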

How the data were processed

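ChIP-seq peaks of 2 biological replicates in 1 group were used as deposited. Chromatin was sonicated to 200 to 800 bp, per the labels. Each dm6 list gives a signal value per peak, deposited by the authors on the caller's scale, and a summit offset, from which the summit was computed, counted from 1. The control, the dm3 lists and the read alignments were not analysed here. For the aligner, caller and reproducibility threshold, names and versions were not given in the sources used here. 0 columns of per-sample values were left unmapped. Depth is unknown, so no count interval is given.

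Genes were those of Ensembl release 115 (BDGP6.54, 18277 genes without transposable elements, 13968 of them protein-coding). A gene was counted when a summit lay within 1 kb of any of its transcript starts, or from 5 kb upstream to its end. A replicate's peak was matched by the strongest candidate summit within 100 bp, and as many of its strongest peaks as the optimal list holds were counted. All 90 annotated start codons of the members read ATG in the genome used (90 of 90). The counting script, tested on simulated summits, gave a wrong count for 0 of 13968 genes. Python 3.11.15, NumPy 2.4.6 and matplotlib 3.10.9 were used.

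The members, the lists of related genes and the motifs were chosen with earlier results of these data known. With 1 group there is no comparison to test, so no p-values are given and counts stand beside those of all protein-coding genes. Named are every member, the related genes with an optimal summit within 1 kb and up to 2 without per list, and genes that share a peak; Chro, skd, CG6565 and sds22 were added after their values were seen. Mediator modules were assigned by subunit name. Names that repeat a member or a listed gene under another symbol were dropped from the lists. Alternatives covered distance, region, interval, starts, assignment, number of peaks and replicate.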

Additional observations from a re-analysis of the deposited data

How the results depend on the processing

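Of 46 alternatives of the 5 main counts, 39 stayed within 1.5 times the main count. When a summit had to be nearest to an own start, 6 genes had an optimal summit within 1 kb (12.2%, all protein-coding genes 9.03%) and 6 in the region (12.2% against 11.2%), and 10 of the related genes had one within 1 kb. Without upstream sequence the region counts were 3 (optimal, 6.12% against 7.04%) and 26 (pooled, 53.1% against 49.8%). A distance of 250 bp left 20 genes with a pooled candidate (40.8%, all protein-coding genes 31.8%). With 2 times as many peaks, 31 related genes had a summit within 1 kb (47%, all protein-coding genes 21.3%). The members' share was above that of all protein-coding genes in 39 of 40 main counts and alternatives, the exception being optimal summits without upstream sequence. The margin was small in some of them, such as 61.2% against 59.6% for pooled candidates in the region nearest to an own start. These 40 settings recounted the same genes on overlapping peak lists, so they are not independent of each other. None held promoter arrangement fixed. Leaving out 1 replicate gave 11 (replicate 2 alone) to 14 (replicate 1 alone) genes with an optimal summit within 1 kb. No paired analysis was possible because there is 1 group. The cause of these shifts was not tested. Unknown depth limits what the absence of a peak can show.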
